A study of Homo sapiens with 9 samples.

Results

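Integrins and laminins were followed through 28 days of osimertinib in PC9 cells. They comprise 38 of the 20435 genes in the deposited table: 18 integrin alpha subunits, 8 integrin beta subunits and 12 laminin chains, taken by gene symbol. Of the transcripts listed for each gene, the one with the highest mean level was kept. PC9 is a human lung adenocarcinoma line with an activating EGFR mutation, and osimertinib is an inhibitor of mutant EGFR. All cells carried the FUCCI4 reporter, which marks cell cycle phase through tagged CDT1 and GMNN, and were fixed with glyoxal, permeabilised with saponin and sorted by DNA content and reporter into G1, S and G2. The 4 day 28 libraries, from cells kept in 500 nM osimertinib, were G1 of clone 1 and of clone 7, S of clone 1 and G2 of clone 1. The 5 day 0 libraries, from cells labelled untreated, were G1 of both clones, S of both clones and G2 of clone 1. Nothing in the labels says how the clones were derived or whether the libraries of 1 clone came from separate cultures. The p-values therefore measure the spread between these libraries.

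Integrins are receptors made of 1 alpha and 1 beta subunit that bind extracellular matrix or other cells and link them to the actin or keratin cytoskeleton. Laminins are trimers of an alpha, a beta and a gamma chain that form the sheet of the basement membrane. In lung epithelium, cells rest on laminins through integrins with ITGA3 or ITGA6 as the alpha subunit, and the ITGA6 and ITGB4 pair sits in hemidesmosomes, the anchors to the keratin network.

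Values are whole reads between the start and stop codon of a transcript, introns included, multiplied by 1 factor for each library. A level below is log2 of that scaled read number plus 1. Levels of different genes are compared as density, the reads per kb of counted span divided by the reads of the library in units of M (1e6). The libraries held 30.5 to 43.1 M reads at day 28 and 8.83 to 108.7 M reads at day 0, the lowest being day 0 G1 of clone 7. These totals are reads recovered from the table over 1 coding span per gene. Their mean of 43.0 M is above the average of about 24 M reads that the labels state, and each density is divided by them. Mitochondrial genes took 8.61% to 21.6% of reads at day 28 and 6.07% to 10.7% at day 0. Coding spans over 300 kb took 2.06% to 3.41% at day 28 and 0.726% to 1.05% at day 0. Over 400 olfactory receptor genes, which lung cells should lack, the density on that scale was 0.0081 to 0.0270 at day 28 and 0.0011 to 0.0049 at day 0. The part that these library differences play in the results was not tested. Epithelial markers (EPCAM, keratins, claudins and CDH1) were present in every library, while of the 6 fibroblast markers 0 to 2 were at 0 reads in the day 28 libraries and 1 to 4 in the day 0 libraries. All 5 endothelial markers had reads in every library, with sums of 3.80 to 13.7 reads per M reads at day 28 and 6.23 to 11.4 at day 0. These sums hold moves in both directions. PECAM1 and CDH5 had log2 fold changes of -2.50 and -1.85 at day 28. VWF had a density of 0.0119 to 0.0320 at day 28 and 0.0021 to 0.0033 at day 0, and TEK 0.0058 to 0.0359 and 0.00055 to 0.0013. The fibroblast marker COL1A1 had a density of 0.867 to 2.90 at day 28 and 0.772 to 1.07 at day 0.

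At day 28 the laminin chains LAMB2, LAMA5 and LAMA2 were higher, and LAMA4 was lower, than at day 0. The integrin subunits ITGB7, ITGA10, ITGB8, ITGA2B and ITGAM were also higher, and ITGA5, ITGB5, ITGB1 and ITGA1 lower. Thus 8 of the 27 members that passed the filter on low values rose and 5 fell (limma over all phases, adjusted p under 0.05), while 28.5% of all 12385 genes tested rose and 26.6% fell. The median log2 fold change was -0.06 over the 27 members and 0.01 over all tested genes. Among alpha subunits 3 of 11 rose and 2 fell, among beta subunits 2 of 7 rose and 2 fell, and among laminin chains 3 of 9 rose and 1 fell. The other 14 members did not pass the test, and 11 members lay below the filter. The filter, a mean log2 value of at least 7.01, was taken over all 9 libraries. Day 0 means of ITGB7, ITGA10 and LAMA2 (6.38, 6.53 and 6.02) lay below that value. These members passed through their day 28 means (9.22, 8.54 and 8.92), so their rises are not independent of the filter. Each library pools sorted cells, so fewer cells with a transcript and less transcript per cell cannot be told apart.

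**Figure D1:**
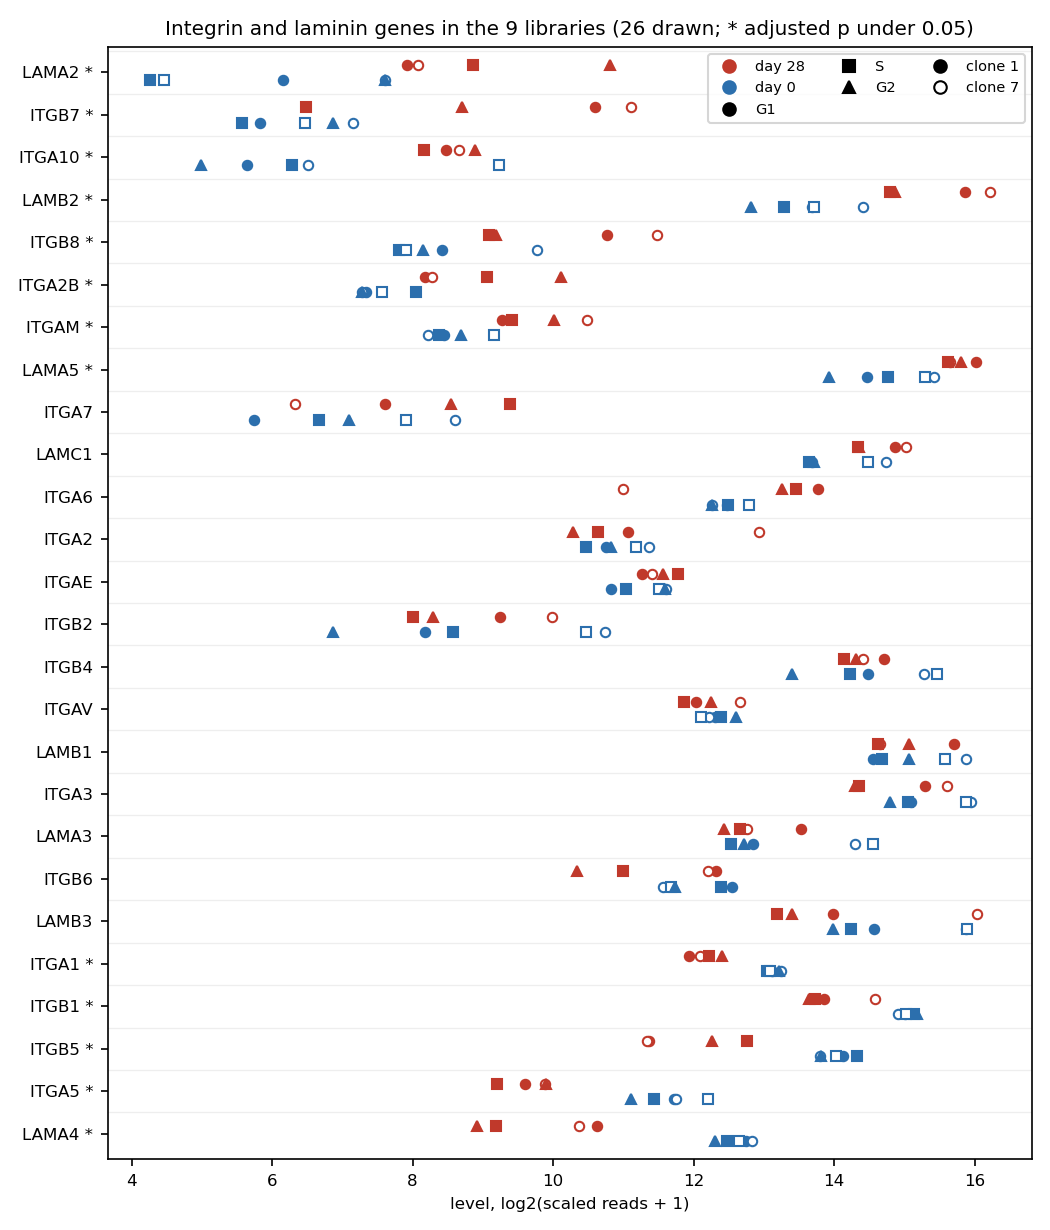
Level of 26 of the 27 tested members, as log2(scaled reads + 1), in the 9 libraries: 4 of day 28 (red) and 5 of day 0 (blue), with the shape giving the phase and open symbols clone 7. LAMA4 lies between 8.91 and 10.63 at day 28 and between 12.30 and 12.83 at day 0, while LAMB2 lies between 14.80 and 16.22 at day 28 and between 12.82 and 14.40 at day 0.

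The promoters of 5 members whose calls went in opposite directions are shown for context: LAMB2 and LAMA5, which rose, and LAMA4, ITGA5 and ITGB1, which fell. Each runs from 250 bases before to 50 bases after the RefSeq start (GRCh38.p14), all on the minus strand, and reads 5′ to 3′. LAMB2 is at chr3:49133001-49133300, LAMA5 at chr20:62367263-62367562, LAMA4 at chr6:112254518-112254817, ITGA5 at chr12:54419217-54419516 and ITGB1 at chr10:32958181-32958480. Capitals mark matches to the AP-1 motif TGANTCA or to the TEAD core CATTCC and its reverse complement GGAATG.
LAMB2: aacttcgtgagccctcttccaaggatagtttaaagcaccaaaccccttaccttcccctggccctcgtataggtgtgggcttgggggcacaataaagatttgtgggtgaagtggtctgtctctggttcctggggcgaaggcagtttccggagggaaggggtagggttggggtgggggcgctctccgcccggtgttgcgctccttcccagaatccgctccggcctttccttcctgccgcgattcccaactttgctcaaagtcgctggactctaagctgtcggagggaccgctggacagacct
LAMA5: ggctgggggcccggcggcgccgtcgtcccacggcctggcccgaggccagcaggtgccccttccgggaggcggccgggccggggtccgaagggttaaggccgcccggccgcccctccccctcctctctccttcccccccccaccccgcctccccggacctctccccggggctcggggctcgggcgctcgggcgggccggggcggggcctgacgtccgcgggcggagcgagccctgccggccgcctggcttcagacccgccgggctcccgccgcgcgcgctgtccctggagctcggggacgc
LAMA4: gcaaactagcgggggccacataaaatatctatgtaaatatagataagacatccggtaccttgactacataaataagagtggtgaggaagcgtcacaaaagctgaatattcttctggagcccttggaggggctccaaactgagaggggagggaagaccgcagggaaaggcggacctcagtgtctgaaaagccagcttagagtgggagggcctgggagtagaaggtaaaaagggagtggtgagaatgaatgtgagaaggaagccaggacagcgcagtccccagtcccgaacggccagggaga
ITGA5: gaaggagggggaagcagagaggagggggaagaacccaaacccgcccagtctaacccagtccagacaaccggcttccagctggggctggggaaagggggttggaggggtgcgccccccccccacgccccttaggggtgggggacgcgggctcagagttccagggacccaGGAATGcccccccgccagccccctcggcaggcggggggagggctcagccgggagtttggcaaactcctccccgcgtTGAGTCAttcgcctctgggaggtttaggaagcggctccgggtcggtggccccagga
ITGB1: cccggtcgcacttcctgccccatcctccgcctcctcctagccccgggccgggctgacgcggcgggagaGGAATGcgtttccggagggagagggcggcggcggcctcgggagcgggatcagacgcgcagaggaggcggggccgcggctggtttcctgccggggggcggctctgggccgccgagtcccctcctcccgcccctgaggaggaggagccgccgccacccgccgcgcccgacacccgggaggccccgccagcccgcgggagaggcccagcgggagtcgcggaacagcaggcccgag
ITGA5 held 1 AP-1 and 1 TEAD match and ITGB1 held 1 TEAD match, with no match in the other promoters shown. Of the 26 members with a promoter in the table, 2 held an AP-1 match (7.7%, against 7.7% of all 35116 promoters) and 4 held a TEAD match (15.4%, against 14.0%). The GC box, searched as GGGCGG and CCGCCC, occurred 5 times in LAMA5, 3 times in ITGB1 and 1 time each in LAMB2 and ITGA5, in no case overlapping a marked match in these promoters. It was present in 53.8% of the members' promoters and in 45.0% of all. These matches describe letters in a window and do not show binding.

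LAMA5 encodes the main laminin alpha chain of adult epithelial basement membranes (chr20:62309336-62367245, minus strand, a span of 57.9 kb of which 19.8% is coding). Its level was 16.02 and 15.65 in day 28 G1 of clones 1 and 7, 15.62 in S and 15.80 in G2, against 14.46 and 15.42 in day 0 G1, 14.77 and 15.30 in day 0 S of clones 1 and 7, and 13.93 in day 0 G2. The groups did not overlap, although the untreated clone 7 libraries came close to the lowest day 28 libraries. The means were 15.77 ± 0.18 at day 28 (SD, n = 4) and 14.78 ± 0.61 at day 0 (SD, n = 5), a log2 fold change of 1.02 ± 0.27 (SE; adjusted p = 0.00779 by limma). Without day 0 G2 it was 0.77 and did not pass the test (adjusted p = 0.0503).

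LAMA4, a chain best known from blood vessel and mesenchymal basement membranes, went the other way (chr6:112109437-112254150, minus strand). Day 28 levels were 10.63 and 10.37 in G1 of clones 1 and 7, 9.19 in S and 8.91 in G2, against 12.75 and 12.83 in day 0 G1, 12.47 and 12.65 in day 0 S, and 12.30 in day 0 G2. The day 28 libraries all lay below the day 0 libraries, and the 2 day 28 libraries outside G1 were the lowest. LAMA4 averaged 9.77 ± 0.85 at day 28 and 12.60 ± 0.21 at day 0 (SD, n = 4 and 5), and the fall of 2.88 ± 0.24 on the log2 scale was 7.36-fold (adjusted p = 2.19e-05).

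LAMA2 encodes the laminin alpha chain of muscle and peripheral nerve, and its counted span is 633.1 kb long (chr6:128883246-129516347, plus strand). Levels were 7.92 and 8.08 in day 28 G1 of clones 1 and 7, 8.86 in S and 10.81 in G2, against 6.15 and 7.60 in day 0 G1, 4.26 and 4.46 in day 0 S, and 7.61 in day 0 G2. The groups did not overlap, and the log2 fold change was 2.64 ± 0.64 (adjusted p = 0.00497). Per kb, however, LAMA2 exceeded the olfactory receptor genes of the same library in only 1 of 4 day 28 libraries and 0 of 5 day 0 libraries. Set against all genes of like span length, its log2 fold change was 0.63 and did not pass the test (adjusted p = 0.435). LAMA3, the alpha chain of the anchoring laminin of stratified and glandular epithelium, had levels of 12.43 to 13.53 at day 28 and 12.53 to 14.55 at day 0 and did not pass the test (log2 fold change -0.53 ± 0.41, adjusted p = 0.288).

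LAMB2, a beta chain of adult basement membranes at nerve terminals, blood vessels and kidney filters, had the highest read density of all members at day 28 (chr3:49121226-49132867, minus strand, 11.6 kb), with a median of 45.2 at day 28 and 10.9 at day 0. Its level was 15.87 and 16.22 in day 28 G1 of clones 1 and 7, 14.80 in S and 14.87 in G2, against 13.69 and 14.40 in day 0 G1, 13.28 and 13.72 in day 0 S, and 12.82 in day 0 G2. Every day 28 library was above every day 0 library, and the G1 libraries of day 28 were the highest. The means were 15.44 ± 0.71 at day 28 and 13.58 ± 0.59 at day 0 (SD, n = 4 and 5), a log2 fold change of 1.79 ± 0.22 (3.47-fold; adjusted p = 0.000128).

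LAMB1, LAMB3 and LAMC1 did not pass the test. LAMB3, which joins LAMA3 in the anchoring laminin, had levels of 13.99 and 16.04 in day 28 G1 of clones 1 and 7, 13.19 in S and 13.40 in G2. At day 0 LAMB3 had 14.57 and 15.88 in G1, 14.24 and 15.89 in S of clones 1 and 7, and 13.99 in G2. In both days the clone 7 libraries were the highest, and the groups overlapped (log2 fold change -0.81 ± 0.50, adjusted p = 0.184). LAMC1, the gamma chain of most laminins, had levels of 14.34 to 15.03 at day 28 and 13.65 to 14.74 at day 0 (0.57 ± 0.25, adjusted p = 0.0777). With the clone as a replicate block LAMB3 passed at -0.54 (adjusted p = 0.0390) and LAMC1 at 0.68 (adjusted p = 0.00792). LAMB1, the widespread beta chain, had a log2 fold change of -0.17 ± 0.32 (adjusted p = 0.664).

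Within each chain class the shares of reads per kb shifted, which is a description of the same values. LAMA5 made up 95.3% to 97.0% of alpha chain density at day 28 and 81.7% to 88.7% at day 0. LAMA4 made up 0.33% to 0.99% at day 28 and 5.35% to 10.6% at day 0. In the beta class LAMB2 held 74.7% to 81.9% at day 28 and 33.3% to 53.5% at day 0, while LAMB3 held 7.27% to 21.5% at day 28 and 30.2% to 49.0% at day 0. The shares of a class sum to 100%, so a rise of 1 chain lowers the shares of the others. The density of LAMB3 itself was 2.89 to 22.8 at day 28 and 4.02 to 16.1 at day 0, which overlapped. Spans differ in how much intron they hold, so these shares rank the chains on reads over whole coding spans and not on messenger molecules.

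**Figure D2:**
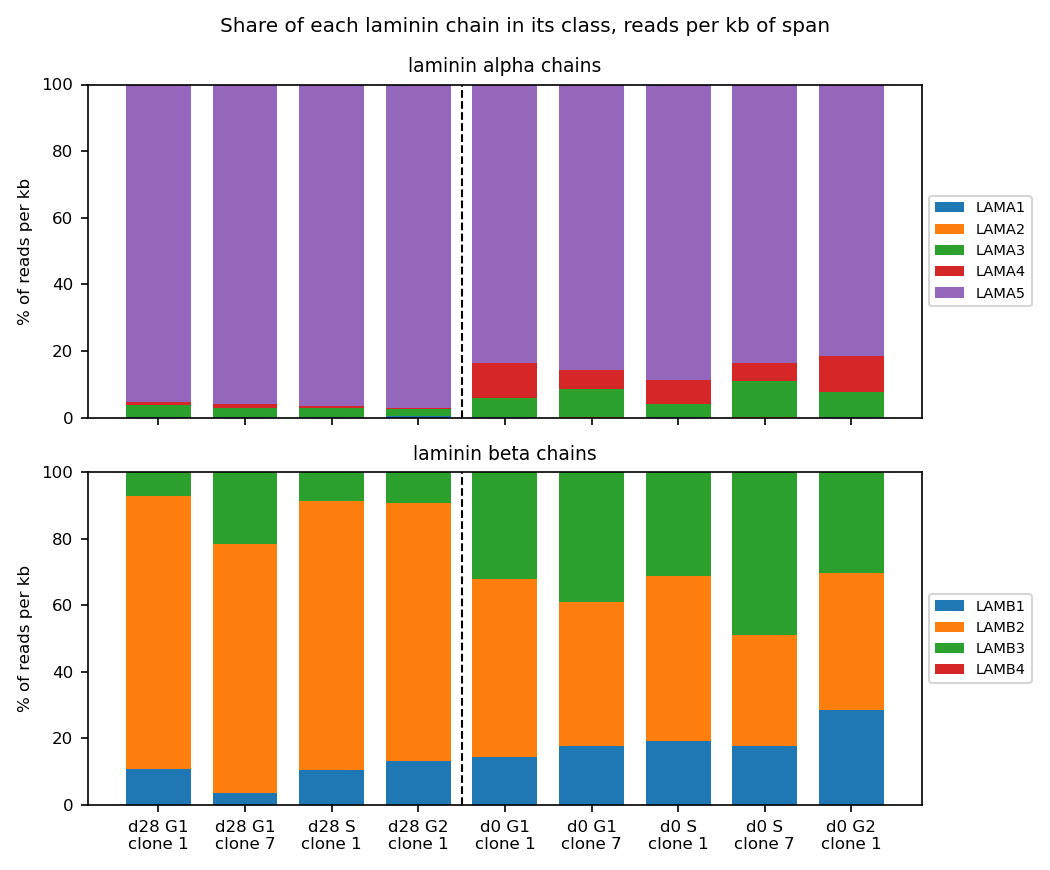
Share of each chain in the reads per kb of its class (percent, stacked to 100), for laminin alpha and beta chains, in the 4 day 28 libraries (left of the dashed line) and the 5 day 0 libraries. LAMB2 takes 74.7% to 81.9% of the beta class at day 28 and 33.3% to 53.5% at day 0.

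Of the laminin receptor subunits ITGA3, ITGA6, ITGA7 and ITGB4, 0 of 4 passed the test over all phases. Of all tested genes 28.5% rose and 26.6% fell there. ITGB1, the partner of ITGA3, is not in this count and was called lower, as given below. ITGA3, the alpha subunit of a main epithelial laminin receptor with ITGB1 as its partner, took 76.8% to 91.3% of integrin alpha density at day 28 and 85.03% to 91.5% at day 0. Its level was 15.29 and 15.60 in day 28 G1 of clones 1 and 7, 14.35 in S and 14.29 in G2, against 15.10 and 15.95 in day 0 G1, 15.05 and 15.88 in day 0 S, and 14.79 in day 0 G2. These groups overlapped (log2 fold change -0.49 ± 0.27, adjusted p = 0.142). The kept span of ITGA3, 13.7 kb long, starts and ends downstream of that of the principal transcript in GENCODE v29. The principal span is 31.9 kb long and had 51.9% as many reads. The share of alpha density above was taken on the kept span and would be lower on the principal span. On the principal span the log2 fold change was -0.83 and passed the test (adjusted p = 0.0231).

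ITGB4, the beta subunit of the hemidesmosome receptor, was the second most read-dense uncalled member on the kept spans. Levels were 14.71 and 14.41 in day 28 G1 of clones 1 and 7, 14.14 in S and 14.30 in G2, against 14.48 and 15.28 in day 0 G1, 14.23 and 15.46 in day 0 S, and 13.40 in day 0 G2. The day 28 libraries lay within the day 0 range (-0.16 ± 0.32, adjusted p = 0.694). ITGA6, its alpha partner, had levels of 13.77 in day 28 G1 of clone 1, 13.46 in S and 13.26 in G2 but 10.99 in day 28 G1 of clone 7, against 12.26 to 12.79 in the day 0 libraries. The 3 clone 1 libraries were thus above all day 0 libraries and the clone 7 library below them all (0.49 ± 0.45 over all phases, adjusted p = 0.375). ITGA7, the laminin receptor subunit of muscle, had levels of 6.32 to 9.39 at day 28 and 5.74 to 8.60 at day 0 (0.89 ± 0.69, adjusted p = 0.292).

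ITGB1 partners the largest number of alpha subunits and fell at day 28 (chr10:32888952-32935558, minus strand). Its level was 13.85 and 14.58 in day 28 G1 of clones 1 and 7, 13.73 in S and 13.64 in G2, against 15.01 and 14.91 in day 0 G1, 15.14 and 15.03 in day 0 S, and 15.18 in day 0 G2. The groups did not overlap, and day 28 G1 of clone 7 was the closest to the untreated libraries. ITGB1 averaged 13.95 ± 0.43 at day 28 and 15.05 ± 0.11 at day 0 (SD, n = 4 and 5), and fell by 1.11 ± 0.21 on the log2 scale (2.16-fold; adjusted p = 0.00136). The principal transcript's span holds 60.3% of these reads, and on it the log2 fold change was -1.47.

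Among the collagen receptors, ITGA1, which binds basement membrane collagen, was called lower and ITGA10, a collagen receptor of cartilage, higher. The span of ITGA1 (chr5:52788354-52952451, plus strand) encloses the coding span of PELO, a ribosome rescue factor, on the same strand at chr5:52800395-52801840. PELO accounted for 57.2% to 72.3% of the ITGA1 reads at day 28 and 62.9% to 78.8% at day 0. The enclosing span had levels of 11.94 to 12.40 at day 28 and 13.04 to 13.25 at day 0, a log2 fold change of -0.99 ± 0.17 (adjusted p = 0.00067), and PELO itself had -1.13 ± 0.18 (adjusted p = 0.000424). With the reads of the PELO coding span taken out, ITGA1 had levels of 10.25 to 11.10 at day 28 and 10.85 to 11.79 at day 0, which overlapped. The log2 fold change was then -0.69 ± 0.25 (adjusted p = 0.0350). The whole PELO gene overlaps the ITGA1 span over 15693 bases, so PELO reads outside its coding span may remain in this value. In G1 alone the value without PELO coding reads was -1.09 (adjusted p = 0.0341), and in S, with 1 library at day 28, it was -0.09.

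ITGA10 (chr1:145892798-145910014, minus strand) had levels of 8.47 and 8.66 in day 28 G1 of clones 1 and 7, 8.16 in S and 8.88 in G2, against 5.64 and 6.51 in day 0 G1, 6.28 and 9.23 in day 0 S of clones 1 and 7, and 4.99 in day 0 G2. The day 0 S library of clone 7 lay above all day 28 libraries, and the other 4 day 0 libraries below them. The log2 fold change was 2.18 ± 0.71 (adjusted p = 0.0221) and did not pass the test without any 1 of 4 libraries, with adjusted p from 0.0553 without day 0 G1 of clone 1 to 0.105 without day 28 G2. The other 2 are day 0 G2 (adjusted p = 0.0967) and day 28 G1 of clone 1 (adjusted p = 0.0601). ITGA2, the main epithelial receptor for fibrillar collagen, had levels of 10.28 to 12.93 at day 28 and 10.46 to 11.36 at day 0, the highest being day 28 G1 of clone 7 (0.25 ± 0.40, adjusted p = 0.609).

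ITGA5, which pairs with ITGB1 as the classical fibronectin receptor, fell at day 28 (chr12:54396293-54419198, minus strand). Its level was 9.59 and 9.89 in day 28 G1 of clones 1 and 7, 9.20 in S and 9.89 in G2, against 11.72 and 11.75 in day 0 G1, 11.43 and 12.21 in day 0 S, and 11.11 in day 0 G2. The groups were more than 1 log2 unit apart at their nearest libraries. ITGA5 averaged 9.65 ± 0.33 at day 28 and 11.65 ± 0.41 at day 0 (SD, n = 4 and 5), a log2 fold change of -2.01 ± 0.27 (4.02-fold lower; adjusted p = 0.000189).

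ITGB5, a partner of ITGAV in a vitronectin receptor, had levels of 11.37 and 11.34 in day 28 G1 of clones 1 and 7, 12.75 in S and 12.26 in G2, against 14.12 and 13.80 in day 0 G1, 14.32 and 14.03 in day 0 S, and 13.81 in day 0 G2 (chr3:124763623-124887000, minus strand). All day 28 libraries were lower, the G1 libraries furthest. The means were 11.93 ± 0.70 at day 28 and 14.02 ± 0.22 at day 0 (SD, n = 4 and 5), and the log2 fold change was -1.996 ± 0.24 (3.99-fold lower; adjusted p = 9.36e-05).

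ITGB8, which pairs with ITGAV to release active TGF-beta from its latent form, was higher (chr7:20331807-20409997, plus strand). Levels were 10.77 and 11.48 in day 28 G1 of clones 1 and 7, 9.08 in S and 9.19 in G2, against 8.42 and 9.78 in day 0 G1, 7.80 and 7.90 in day 0 S, and 8.14 in day 0 G2. Day 0 G1 of clone 7 lay above day 28 S and G2, so the groups overlapped, while within each phase and clone the day 28 library was the higher. The means were 10.13 ± 1.19 at day 28 and 8.41 ± 0.80 at day 0 (SD, n = 4 and 5; log2 fold change 1.56 ± 0.36, adjusted p = 0.00403). On the transcript with the next highest mean level it was 0.88 and did not pass the test (adjusted p = 0.0594).

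ITGB6, the epithelial ITGAV partner that also acts on latent TGF-beta, had levels of 10.34 to 12.31 at day 28 and 11.56 to 12.55 at day 0 (-0.54 ± 0.32, adjusted p = 0.169). ITGAV itself had 11.86 to 12.65 at day 28 and 12.11 to 12.60 at day 0 (-0.16 ± 0.20, adjusted p = 0.510). The kept ITGAV span reaches past the usual stop codon, and the principal span, which holds 14.4% of its reads, had a log2 fold change of 0.29 (adjusted p = 0.430). ITGA2B, the alpha subunit of the platelet fibrinogen receptor, had levels of 8.17 and 8.27 in day 28 G1 of clones 1 and 7, 9.06 in S and 10.11 in G2, against 7.34 and 7.28 in day 0 G1, 8.05 and 7.57 in day 0 S, and 7.27 in day 0 G2. The groups did not overlap (log2 fold change 1.46 ± 0.41, adjusted p = 0.0108), and without day 28 G2 the value was 1.05 (adjusted p = 0.0552). Its partner ITGB3 lay below the filter. The 5 platelet markers summed to 6.85 to 32.8 reads per M reads at day 28 and 0.543 to 1.93 at day 0. Most of these were GP6, a collagen receptor of platelets, with 251 to 1071 reads at day 28 and 17 to 78 at day 0 (log2 fold change 3.46, adjusted p = 0.000207), while GP9 and PF4 had 0 reads in every library. The part of these markers in the ITGA2B result was not tested.

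Subunits best known from leukocytes differed in level among themselves. ITGB7, the beta subunit of gut-homing lymphocyte receptors, had the largest called rise among the tested integrins (chr12:53191556-53200443, minus strand). Its level was 10.60 and 11.11 in day 28 G1 of clones 1 and 7, 6.48 in S and 8.71 in G2, against 5.83 and 7.16 in day 0 G1, 5.57 and 6.47 in day 0 S, and 6.86 in day 0 G2. Both day 28 G1 libraries stood far above all others, while day 28 S lay within the untreated range. The log2 fold change over all phases was 2.58 ± 0.68 (adjusted p = 0.0077). ITGB7 made up 11.6% and 15.0% of integrin beta density in day 28 G1, 0.99% in day 28 S and 4.37% in day 28 G2, against 0.31% to 0.98% at day 0. ZNF740 overlaps the 3′ part of ITGB7 on the opposite strand; of 137 pairs with a gene nested in a host on the opposite strand, the nested gene had more reads than its host in 54, against 0 of 798 pairs on the same strand, so reads of the strands were counted apart.

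ITGAM, the alpha subunit of a complement receptor of myeloid cells, had levels of 9.27 and 10.49 in day 28 G1 of clones 1 and 7, 9.42 in S and 10.01 in G2, against 8.45 and 8.21 in day 0 G1, 8.37 and 9.16 in day 0 S, and 8.68 in day 0 G2. The groups lay close together without overlapping (1.22 ± 0.36, adjusted p = 0.0128). Its partner ITGB2 ranged from 8.01 to 9.98 at day 28 and from 6.86 to 10.74 at day 0, with the clone 7 libraries highest (-0.06 ± 0.63, adjusted p = 0.940). ITGAE, a partner of ITGB7 that binds CDH1, had levels of 11.27 to 11.78 at day 28 and 10.83 to 11.61 at day 0 (0.21 ± 0.23, adjusted p = 0.459). Summed over 10 genes, leukocyte markers had 3.99 to 7.37 reads per M reads at day 28 and 5.21 to 13.6 at day 0. CD68, which other cells express too, supplied most of these reads at day 0 and fell at day 28 (log2 fold change -2.80, adjusted p = 0.000521). The other 9 markers summed to 2.64 to 6.43 reads per M reads at day 28 and 0.68 to 1.45 at day 0, so every day 28 library was above every day 0 library. Among them PTPRC had 16 to 95 reads at day 28 and 0 to 11 at day 0. Its density lay below that of the olfactory receptor genes in every day 28 library (0.0045 to 0.0189 against 0.0081 to 0.0270). At day 28 and day 0, CSF1R had 0 to 47 and 0 to 51 reads, CD14 0 to 39 and 2 to 14, and LYZ 0 to 28 and 2 to 25. The part of these markers in the results on ITGB7 and ITGAM was not tested. Between 0 and 5 of the 10 leukocyte markers were at 0 reads at day 28, and between 2 and 7 at day 0.

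Below the filter were ITGA4, ITGA8, ITGA9, ITGA11, ITGAD, ITGAL, ITGAX, ITGB3, LAMA1, LAMB4 and LAMC3. Fitted with no filter, 4 of these 11 were called higher at day 28 and 0 lower, while 24.4% of all 20435 genes were called higher and 16.4% lower in that fit. ITGA9, a tenascin receptor subunit, had 114 to 427 reads at day 28 and 2 to 22 at day 0, with a log2 fold change of 4.11 ± 0.61 (adjusted p = 7.22e-05). Its density was 1.003 to 1.44 times that of the olfactory receptor genes at day 28 and 0.127 to 0.469 times at day 0, so it lay near that background at day 28. The span of ITGA9 is 366.6 kb, and 80.9% of tested genes with spans over 300 kb rose. LAMA1, an embryonic laminin alpha chain, had 32 to 276 reads at day 28 and 0 to 23 at day 0, and passed the olfactory density in 1 of 4 day 28 libraries and 0 of 5 day 0 libraries. ITGA8 (15 to 421 reads at day 28, 1 to 18 at day 0) did so in 1 and 0 libraries, and LAMB4 (38 to 66 at day 28, 2 to 19 at day 0) in 2 and 2. At these depths the remaining 7, with at most 131 reads in a library, gave no call.

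Within G1, where both days have 2 clones, 3 members rose and 4 fell, while 19.8% of all tested genes rose and 19.2% fell. ITGB7 rose by 4.36 ± 0.67, ITGB8 by 2.03 ± 0.54 and LAMB2 by 1.996 ± 0.32 on the log2 scale (adjusted p = 0.00439, 0.0220 and 0.0049). ITGB5 (-2.60 ± 0.25), LAMA4 (-2.29 ± 0.26), ITGA5 (-1.99 ± 0.34) and ITGA1 (-1.16 ± 0.23) fell, with adjusted p of 0.00233, 0.00255, 0.00585 and 0.00883. With the clone as a replicate block ITGA10 (2.49, adjusted p = 0.0332) and ITGAM (1.54, adjusted p = 0.0292) were called as well, making 5 higher. On the transcript with the next highest mean level ITGB8 was not called (1.11, adjusted p = 0.109). With the trend on span length taken out ITGB8 was not called either (1.51, adjusted p = 0.0662). The ITGB8 call was lost without day 0 G1 of clone 1 (adjusted p = 0.0799) and without day 28 G1 of clone 1 (adjusted p = 0.0618) or clone 7 (adjusted p = 0.123).

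Within S, with 1 library at day 28 that is assumed to vary like the other groups, LAMA2 rose by 4.503 ± 0.83 and LAMA4 (-3.38 ± 0.32), ITGA5 (-2.62 ± 0.42) and ITGB5 (-1.42 ± 0.31) fell (adjusted p = 0.0340, 0.0229, 0.0295 and 0.0422). Of all tested genes 4.38% rose and 2.9% fell there. The 4 calls were lost without day 0 S of clone 7 and without either day 28 G1 library, where 0 of all genes were called, and those of LAMA2 and ITGB5 also without day 0 S of clone 1 (adjusted p = 0.0759 and 0.150). With the replicate block LAMB2 was also called (1.55, adjusted p = 0.0270). G2 has 1 library for each day and no test. The differences there were -3.39 for LAMA4, 2.05 for LAMB2, 1.87 for LAMA5, -1.55 for ITGB5, -1.54 for ITGB1 and -1.22 for ITGA5.

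**Figure D3:**
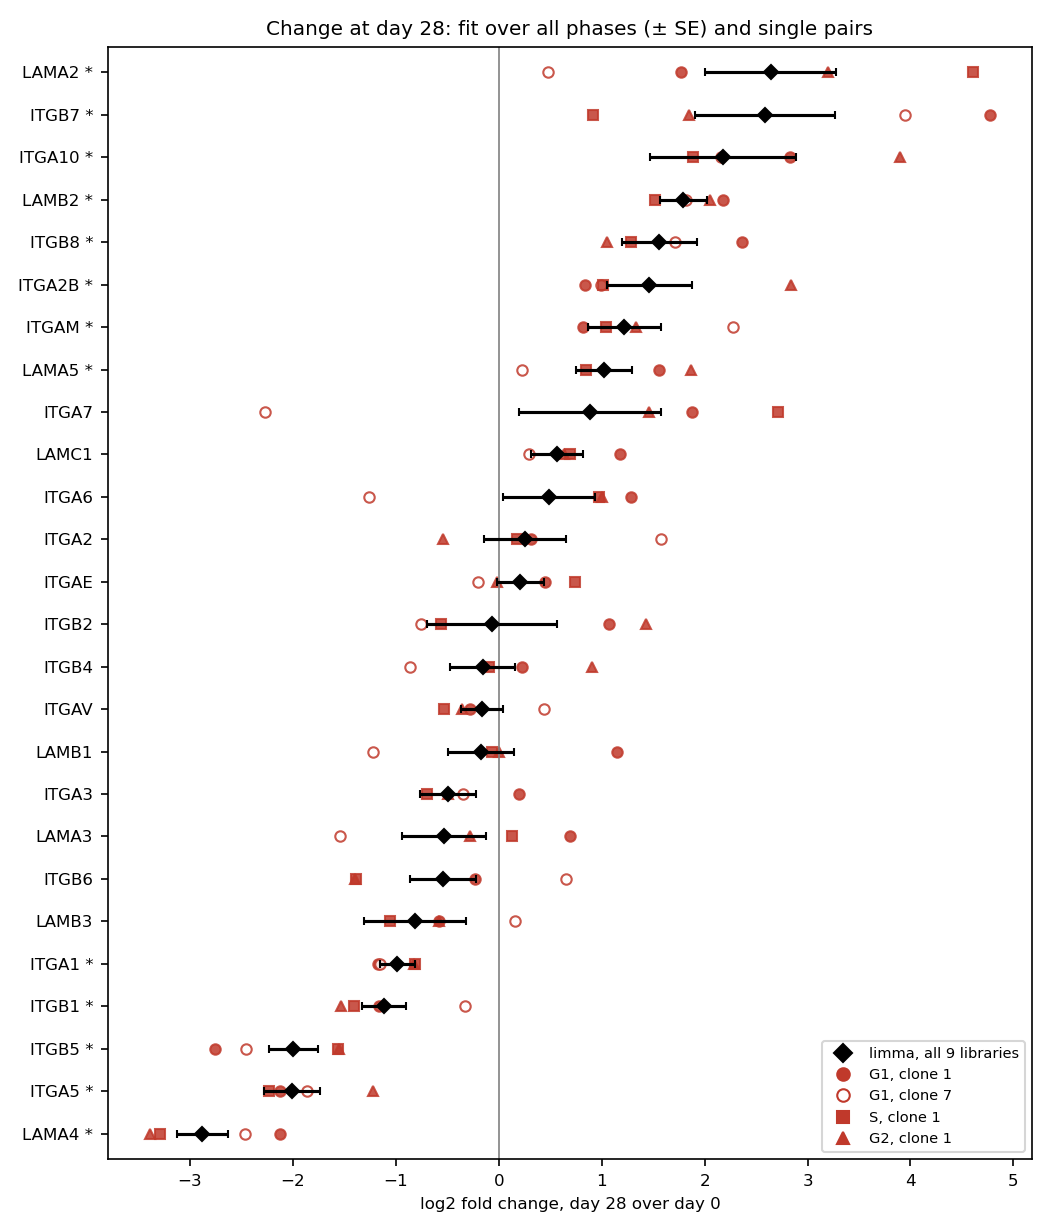
Log2 fold change of day 28 over day 0 for 26 of the 27 tested members: the limma estimate over all 9 libraries with its SE (black) and the difference within each phase and clone (red, open symbols for clone 7). LAMA4, ITGA5 and ITGB5 are below 0 and LAMB2 is above 0 in each of the 4 pairs, whereas ITGA6 is at 1.28, 0.97 and 1.01 in the clone 1 pairs and at -1.27 in the clone 7 pair.

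In untreated cells S against G1 gave 0 calls among members and among all genes by limma. At an unadjusted p under 0.05 it gave 1 member and 443 genes. At day 28, S and G2 against G1 gave ITGB5 higher (1.15 ± 0.25, adjusted p = 0.0465) and ITGB7 (-3.26 ± 0.67, adjusted p = 0.0401) and LAMA4 (-1.45 ± 0.26, adjusted p = 0.0295) lower. There 2.9% of all tested genes were higher and 1.85% lower. The S and G2 side holds 1 S and 1 G2 library, both of clone 1, and the G1 side holds 1 library of each clone. Neither S nor G2 has a replicate at day 28, and phase is partly mixed with clone. Each of the 3 calls was lost without either day 0 S library, without either day 28 G1 library and without day 28 G2. ITGB5 and ITGB7 were lost without day 28 S as well. With the replicate block ITGB6 was also called lower (-1.89, adjusted p = 0.0257). A day-by-phase term, which asks whether the change in S and G2 differed from that in G1, gave 0 calls among members and among all genes by limma, with 5 members and 1381 genes at an unadjusted p under 0.05. A difference between phases in the response of ITGB7 or LAMA4 is therefore not shown.

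The clones differed in LAMB3. It was higher in clone 7 by 1.31 in day 0 G1, 1.65 in day 0 S and 2.05 in day 28 G1 on the log2 scale. In the fit with day and phase, clone 7 exceeded clone 1 by 1.77 ± 0.23 for LAMB3 (adjusted p = 0.00912), while 0.388% of all tested genes were higher and 0.226% lower in clone 7. Fitted with each of the 6 groups apart, as the replicate block requires, it was 1.67 (adjusted p = 0.0755). The call was lost without day 0 G1 of clone 1 (adjusted p = 0.128), without day 0 S of clone 7 (adjusted p = 0.159) and without day 28 G1 of clone 1 (adjusted p = 0.0539). LAMA3 was higher in clone 7 by 1.45 and 2.02 at day 0 while in day 28 G1 the difference was -0.77.

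ITGA6 was the only member for which the change at day 28 differed between clones in a day-by-clone term, added after its values were seen (-2.58 ± 0.39, adjusted p = 0.0293). Of all tested genes 0.275% had a negative and 0.113% a positive term. The term rests on 1 day 28 library of clone 7. In that library ITGA6 had 824 reads, of 33.5 M reads, against 4750 to 5088 reads in the other day 28 libraries.

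Some rows of the table divide a gene into a 5′ and a 3′ part, which could be done for 9 members (limma on the difference of the 2 parts, added after the rows were seen). The 5′ part gained on the 3′ part at day 28 in 5 members and lost in 2. Of 5900 genes divided in this way 16.2% gained and 14.6% lost. ITGA6 had 27.9% and 28.2% of its reads in the 5′ part in day 28 G1 of clones 1 and 7, 21.99% in S and 27.1% in G2, against 2.87% and 14.2% in day 0 G1, 2.53% and 4.89% in day 0 S, and 4.72% in day 0 G2. All day 28 libraries were higher, clone 7 included (difference 2.72 ± 0.47 on the log2 scale, adjusted p = 0.00295). Its 5′ part rose by 2.86 ± 0.60 (adjusted p = 0.00194), while the 3′ part had 0.15 ± 0.44 (adjusted p = 0.799). Gains were also called for LAMA3 (mean 5.91% at day 28 and 1.59% at day 0), ITGB8 (60.5% and 36.2%), ITGA2 (37.5% and 21.6%) and LAMA4 (19.3% and 9.15%), with adjusted p of 0.0125, 0.0177, 0.0277 and 0.0425. The 5′ part of ITGB8 rose by 2.29 ± 0.49 (adjusted p = 0.0022), while its 3′ part had 0.88 ± 0.36 and did not pass the test (adjusted p = 0.0602).

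The 5′ share fell in ITGB1, with a mean of 34.2% at day 28 and 53.4% at day 0 (adjusted p = 0.0293), and in LAMB3, with 1.74% at day 28 and 4.503% at day 0 (adjusted p = 0.0156). In ITGB1 the 5′ part fell by 1.76 ± 0.32 and the 3′ part by 0.62 ± 0.20 on the log2 scale, both past the test (adjusted p = 0.000777 and 0.0231). LAMA4 fell in both parts, by 1.89 ± 0.34 in the 5′ part and by 3.05 ± 0.27 in the 3′ part. ITGA1, with PELO in its 5′ part, and LAMB1 had no called shift. The reads of a part include introns, so a share does not tell transcript isoforms from unspliced RNA.

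**Figure D4:**
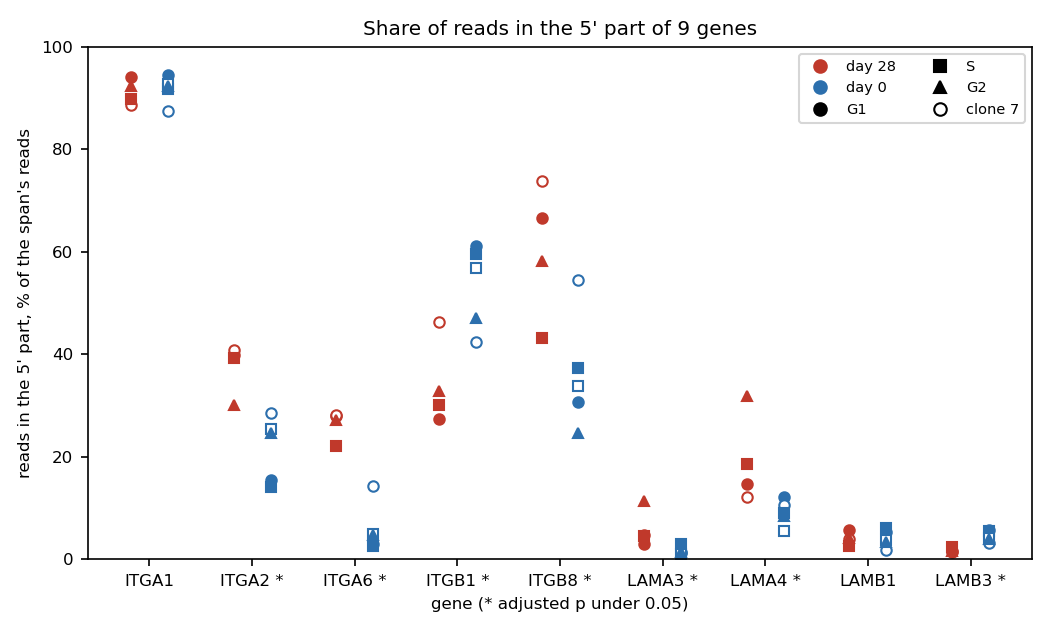
Reads in the 5′ part of the counted span, as percent of the reads of the whole span, for the 9 members that the rows of the table divide, in each day 28 (red) and day 0 (blue) library. ITGA6 lies between 21.99% and 28.2% at day 28 and between 2.53% and 14.2% at day 0, and ITGB1 between 27.4% and 46.4% at day 28 and between 42.3% and 61.2% at day 0.

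Span length moved with the change at day 28 across all genes. Among tested genes with spans of 100 to 300 kb, 56.2% rose and 8.76% fell (median log2 fold change 0.84), yet of the 6 members in that range 0 rose and 3 fell: LAMA4, ITGB5 and ITGA1. For ITGA1, 57.2% to 78.8% of the counted reads lay in the enclosed coding span of PELO, which was itself called lower. Below 10 kb 15.8% of genes rose and the median was -0.42, and the 1 member there, ITGB7, rose. Of the 8 members between 10 and 30 kb, where 19.4% of genes rose, 3 rose (LAMB2, ITGA10 and ITGA2B) and ITGA5 fell. With the trend on span length taken out, LAMA2 (0.63, adjusted p = 0.435) and ITGAM (0.81, adjusted p = 0.0804) were no longer called, and LAMA3 (-1.86, adjusted p = 0.0035), ITGB6 (-1.15, adjusted p = 0.0123) and ITGAV (-0.71, adjusted p = 0.0130) were called lower, 8 members in all.

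**Figure D5:**
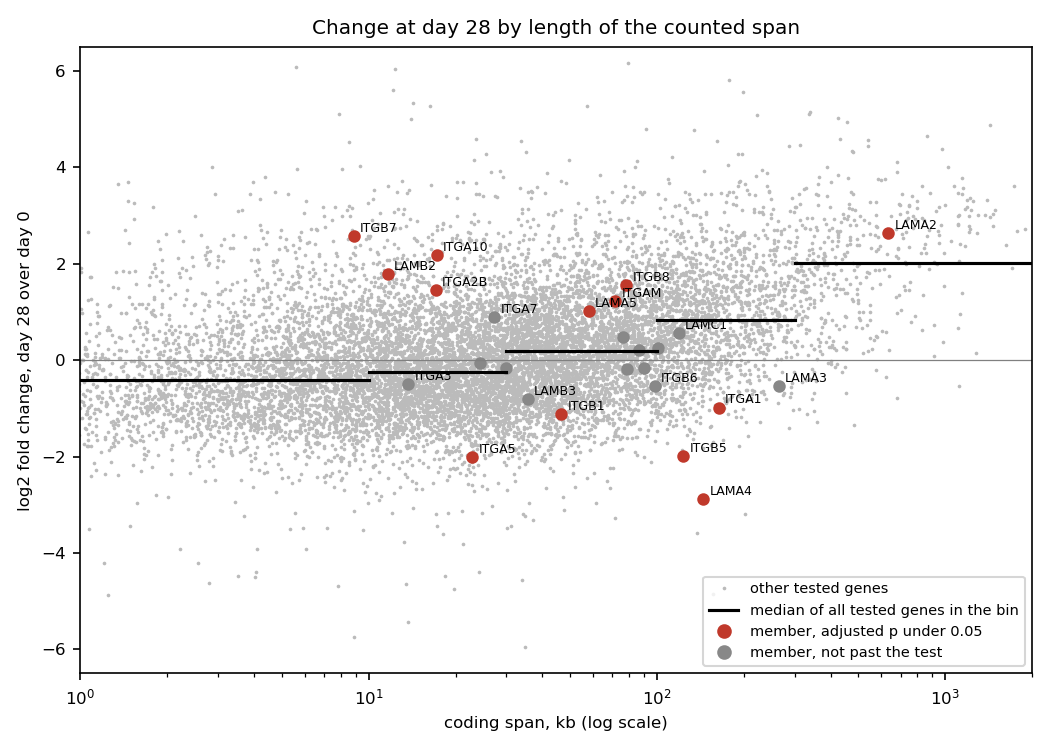
Log2 fold change of day 28 over day 0 against the length of the counted coding span (kb, log scale), for all tested genes (grey) with their median in 5 length bins (black lines) and 26 of the 27 members (red where called). The bin medians run from -0.42 to 2.01 with length, while LAMA4, ITGB5 and ITGA1, in the bin of 100 to 300 kb with a median of 0.84, lie at -2.88, -1.996 and -0.99. Most ITGA1 reads lay in the enclosed coding span of PELO.

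Partners of integrins and laminins changed in both directions, and are given as counts beside the same background of 28.5% rising and 26.6% falling. Of 24 tested regulators and adaptors of integrins, 6 rose and 3 fell (median log2 fold change 0.01). The furthest were TNS4, a tensin of epithelial cells (-3.16 ± 0.49, adjusted p = 0.000403), FERMT3, the kindlin of blood cells (2.12 ± 0.41, adjusted p = 0.00138), and TNS3, another tensin (2.04 ± 0.23, adjusted p = 7.22e-05). Of 18 genes of focal adhesion kinase signalling 9 rose and 3 fell (median 0.58). NEDD9, a scaffold of the kinase, rose by 2.21 ± 0.44, DOCK1, which activates RAC, by 1.81 ± 0.22, and ARHGEF7, an exchange factor bound to paxillin partners, by 1.55 ± 0.26. The kinase itself, PTK2, rose by 0.86 ± 0.18 (adjusted p = 0.00205), and was named after its value was seen.

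Of 11 tested hemidesmosome and laminin receptor partners, 2 rose and 5 fell (median -0.33). The proteoglycan SDC1 fell by 2.09 ± 0.32, while BCAM, a receptor that binds LAMA5, rose by 1.59 ± 0.19 and DST, a hemidesmosome plaque protein among other roles, by 1.38 ± 0.28. Of 11 basement membrane partners of laminin 5 rose and 1 fell (median 0.60), led by NTN1 (3.07 ± 0.29) and the collagen IV chains COL4A3 (2.52 ± 0.33) and COL4A4 (2.22 ± 0.34). Of 18 tested integrin ligands other than laminins 8 rose and 4 fell (median 0.71), with TGFBI at -3.19 ± 0.18, TNXB at 3.14 ± 0.49 and EDIL3 at 3.04 ± 0.66. Of 7 latent TGF-beta partners of ITGAV receptors 2 rose and 2 fell (median 0.26): TGFB3 had 1.54 ± 0.51, LTBP2 -1.05 ± 0.26 and TGFB1 -0.82 ± 0.21, and LTBP4 (0.66 ± 0.19) was named after its value was seen. DOCK1, DST, EDIL3 and TNS3 have spans over 300 kb, a length at which 80.9% of tested genes rose. NEDD9, ARHGEF7, PTK2, NTN1, COL4A3 and COL4A4 have spans of 100 to 300 kb. At that length 56.2% of tested genes rose and 8.76% fell, with a median log2 fold change of 0.84. The 5 basement membrane partners that rose have spans of 113.9 to 256 kb, and PXDN, the 1 that fell, has 110 kb. Of the 8 epithelial markers 0 rose and 5 fell (median -0.96); their sum was 12210 to 23515 reads per M reads at day 28 and 18966 to 29958 at day 0.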

How the data were processed

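RNA from cells sorted by phase was sequenced as poly(A)-selected, strand-marked 75-base single reads, per the labels' protocols. Reads were aligned with HISAT2 2.1.0 to GRCh38, and DESeq2 was named without a version, per the submitters' processing notes. The counter and the scaling are not given in the sources used here. The authors deposited log2 values for 80037 transcript coding spans. Of the values up to 1000 reads, 100% lay within 0.05 of a whole number of reads once divided by 1 factor per library, with 0.9 reads entered where there were none. For each of 20435 genes the transcript with the highest mean was kept. The 12385 genes with a mean log2 value of at least 7.01, which is 10 reads in the shallowest library, were tested on log2(value + 1) with limma 3.58.1 (trend, Benjamini-Hochberg adjusted p under 0.05, two-sided; R 4.3.3, Python 3.11.15), which was tested on simulated data. Error terms after ± are SE for fold changes and SD for levels. Fold changes on the log2(value + 1) scale understate those of low genes. The depth of 8.83 to 108.7 M reads sets the precision, and read numbers carry counting error beyond it.

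Clone numbers pair the libraries, although the labels do not say whether those of 1 clone came from separate cultures. Deviations of the libraries from the group means correlated at 0.653, 0.116 and 0.296 over 12385 genes. The main fits for day and phase left the clone out, and each fit was repeated with the clone as a replicate block. Members called in a comparison, the 3 uncalled members with the highest reads per kb, and the 3 largest called changes of each partner list were named by rule, with the remaining members given by role; 1 tested member stays in the counts and is not reported here. The members and lists were chosen with earlier results of these data known. Alternatives covered scaling, filter, transcript row, block, span length and leaving out each library.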

Additional observations from a re-analysis of the deposited data

Results flagged for a closer look

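ITGA6 stood out because its change at day 28 differed between the clones, with a day-by-clone term of -2.58 on the log2 scale (SE 0.39; limma, adjusted p = 0.0293). Within G1, day 28 minus day 0 was -1.27 in clone 7 and 1.28 in clone 1. The term was added after the values were seen and rests on 1 day 28 library of clone 7. No library of any tested member lay far enough from its group to be singled out, in 54 groups of 4 or 5 libraries.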

How the results depend on the processing

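Over all phases, 8 members higher became 2 with the second transcript row of each gene and 6 to 10 when a library was left out; 5 lower became 8 with the span trend removed and 5 to 7 when a library was left out. In G1, 3 higher became 6 with no filter, 5 with quantile normalization, 5 with the replicate block, 0 with the second row and 2 to 4 when a library was left out, where 4 lower became 4 to 5. In S, 1 higher became 2 with a filter of 1 CPM, 5 with no filter, 2 with the replicate block, and 0 with the second row or the span trend removed, and leaving out a library gave 0 to 1 higher and 0 to 3 lower. For day 28 S and G2 against G1, 1 higher became 0 with median-of-ratios scaling or the second row, and 2 lower became 5 with no filter, 6 with quantile normalization and 1 with the second row; leaving out a library gave 0 to 1 higher and 0 to 4 lower. For the clones, 2 higher became 1 with quantile normalization, 0 with the replicate block and 0 to 5 when a library was left out. The day-by-phase term gave 0 to 1 higher when a library was left out. Calls over all genes moved as well. Over all phases, 3535 genes higher and 3290 lower became 2928 and 3254 with the second row, and 2594 and 3332 with the span trend removed. In G1, 2456 and 2372 became 3054 and 3034 with the replicate block. For the clones, 48 and 28 became 8 and 2 with that block. Members tested were 21 with the second row and 38 with no filter, against 27 in the main fit. The cause of these shifts was not tested.

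Over all phases the middle change among tested genes was -0.10 with median-of-ratios and -0.11 with quantile scaling, against 0.01. Of the single-member values, 797 kept direction and call, 64 lost the call, 22 gained one and 28 reversed. With the second row, reversals were LAMA5 (-1.16) and LAMB2 (-0.55), whose second rows are short internal spans with few reads, and ITGAV (0.29, also on the principal row). With clone 1 alone, values reversed for ITGA2 (-0.0169), ITGB2 (0.64), ITGB4 (0.35), LAMA3 (0.18) and LAMB1 (0.36). Quantile normalization reversed ITGA3 (0.0807), ITGB4 (0.24) and LAMB1 (0.38), and the span trend ITGA2 (-0.37), ITGAE (-0.31), ITGB2 (0.0022) and LAMC1 (-0.17). ITGB2 also reversed with the replicate block (0.23), the mean within phases (0.0248) and voom (0.32). When a library was left out, ITGA2 ranged from -0.21 to 0.49, LAMB1 from -0.44 to 0.0413, ITGB4 from -0.48 to 0.0875 and ITGB2 from -0.57 to 0.58. None of these values was called. ITGA6 passed the test without day 28 G1 of clone 7 (1.08, adjusted p = 0.00139), and ITGA7 without day 0 G1 of clone 7 (1.61, adjusted p = 0.0258). ITGA10, ITGA2B and ITGAM lost their call with quantile normalization (adjusted p = 0.0655, 0.0738 and 0.119). With the replicate block, no calls of the members reported here changed other than those given beside the results.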
